A study of Mus musculus with 6 samples.

Results

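Adrenomedullin, apelin and B-type natriuretic peptide are secreted peptides that act on blood and lymph vessels, and 8 genes of these systems were read in 6 RNA sequencing libraries of mouse lung endothelial cells. The 8 genes were Adm, Adm2, Apln and Nppb, which encode the peptides, and Calcrl, Ramp2, Ramp3 and Aplnr, which encode receptors or receptor subunits. They were taken by symbol from a table of 18956 genes, and were chosen by their values in the same contrast that is described here. The differences of the 8 genes are therefore given as a description, and nothing is concluded from a test of them. The genes that act with them were listed by role and were tested.

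The libraries formed 2 groups of 3. One group carried the labels WT and Cre-negative, called WT 1 to 3 here, and the other the labels CSE-KO and Cre-positive, called CSE-KO 1 to 3, where CSE is cystathionine gamma-lyase, the enzyme encoded by Cth. Unstated in the labels were the Cre driver, the deleted exons, the strain, the age and whether replicates came from separate animals or cultures. The title of the study places the cells in work on cystine import, histone acetylation and vascular growth. Totals of normalized counts were between 5698922 and 6052275 per library. Cth itself was at 29, 27 and 26 in WT 1 to 3, against 49, 43 and 63 in CSE-KO 1 to 3, which goes against the label, although such a value covers all exons of Cth, deleted or not. Higher and lower therefore refer to libraries by their labels, CSE-KO against WT. The scatter within groups was measured as the mean squared difference of a pair of libraries over their sum, which counting noise alone puts at about 1. Over 12149 genes it was 0.693 to 0.742 for the WT pairs, 0.850 for CSE-KO 2 and 3 and 1.72 and 2.02 for the pairs with CSE-KO 1. In 1842 genes with few counts per base it was 0.920 to 0.977 for the WT pairs and 1.11 to 1.54 for the CSE-KO pairs. The WT libraries thus differed by no more than sampling gives, and their source is not stated, so p-values measure only how these libraries scatter, which may be technical.

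Adrenomedullin signals through the calcitonin receptor-like receptor, the product of Calcrl, which reaches the cell surface only with a receptor activity-modifying protein. With RAMP2 or RAMP3 it forms the adrenomedullin receptors, which raise cyclic AMP, and in mice adrenomedullin, CLR and RAMP2 are needed for blood and lymph vessels to form. The product of Adm2, also called intermedin, acts on the same receptors. Apelin signals through its own receptor, the product of Aplnr, and marks sprouting endothelial tip cells. B-type natriuretic peptide, the product of Nppb, is best known from heart muscle and acts on natriuretic peptide receptor A, the product of Npr1, which makes cyclic GMP.

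Promoter sequences were at hand for 6 of the 8 genes, from RefSeq on GRCm38.p6 (the mm10 build of the files), as 300 bases from 250 before to 50 after the start. Those of the 2 peptide genes that were near 0 in WT, Adm2 and Nppb, are shown, with that of Calcrl, the shared receptor gene. Adm2 lies at chr15:89322470-89322769 on the plus strand, Nppb at chr4:147985650-147985949 on the plus strand and Calcrl at chr2:84425217-84425516 on the minus strand. Each is written 5′ to 3′ in the direction of transcription, and capitals mark matches to the motifs searched.
Adm2: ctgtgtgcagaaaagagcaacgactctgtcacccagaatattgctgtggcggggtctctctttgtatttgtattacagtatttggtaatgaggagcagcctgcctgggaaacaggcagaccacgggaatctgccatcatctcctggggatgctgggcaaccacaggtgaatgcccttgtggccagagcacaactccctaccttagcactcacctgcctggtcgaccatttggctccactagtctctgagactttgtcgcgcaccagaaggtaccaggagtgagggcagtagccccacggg
Nppb: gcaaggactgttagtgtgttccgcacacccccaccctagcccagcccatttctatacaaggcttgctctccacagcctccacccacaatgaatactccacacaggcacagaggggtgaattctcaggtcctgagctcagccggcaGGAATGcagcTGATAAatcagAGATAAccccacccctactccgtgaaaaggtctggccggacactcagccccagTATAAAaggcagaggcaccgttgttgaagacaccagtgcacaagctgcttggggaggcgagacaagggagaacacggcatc
Calcrl: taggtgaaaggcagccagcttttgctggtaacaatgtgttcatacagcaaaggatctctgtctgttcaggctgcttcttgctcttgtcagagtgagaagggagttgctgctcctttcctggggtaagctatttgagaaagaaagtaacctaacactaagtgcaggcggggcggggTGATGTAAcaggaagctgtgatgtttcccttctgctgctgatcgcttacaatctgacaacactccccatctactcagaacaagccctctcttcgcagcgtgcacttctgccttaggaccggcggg

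The motifs were searched on both strands in these windows and in all 32851 promoters of the same table. They were the cyclic AMP response element TGACGTCA (in 1.79% of all promoters), its core TGACG, which the full element also holds (20.8%), the composite of ATF4 and C/EBP factors TGATGNAA (3.97%), the core of the hypoxia response element ACGTG (19.6%), the M-CAT element CATTCC of TEAD factors (14.7%), the GATA motif NGATAA (25.3%) and the TATA box TATAAA (13.6%). The Nppb window held the M-CAT letters on the reverse strand, first base 105 bases before the start, GATA letters at 95 and 84 bases before it and a TATA box at 31 bases before it. The Calcrl window held TGATGTAA, a match to the ATF4 composite, at 75 bases before the start. No match was found in the windows of Adm2, Adm and Apln, and that of Ramp3 held only M-CAT letters at 228 bases before the start. Positions count from the RefSeq start. The gene bounds given below begin further upstream for Nppb and Calcrl, so the matches in these 2 windows lie within those bounds. A match says only that these letters are present.

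The peptide genes differed in how they stood between the groups. Adm2 and Nppb were near 0 in WT and above 200 in CSE-KO, Adm was moderately higher in CSE-KO, and Apln lay at nearly the same level in both. The receptor subunit genes Calcrl, Ramp2 and Ramp3 were lower in CSE-KO in every library, and Aplnr was at or near 0 throughout. Summed per kb of exon, the 4 peptide genes were at 895 ± 22.6 (SD, n = 3) normalized counts in WT and 1525 ± 26.0 in CSE-KO, and the 4 receptor genes at 738 ± 9.24 and 353 ± 31.6. Of the 8 genes, 7 reached 10 normalized counts in 3 or more libraries and entered the fit across all genes, and 2 of those 7, Adm2 and Nppb, reached that minimum only in CSE-KO. By limma with a Benjamini-Hochberg adjusted p under 0.05, 6 of the 7 were called, and their groups did not overlap in 6 of 7. Over all 13750 genes tested these shares were 77.4% and 80.4%. Because the genes were chosen on this contrast, nothing is read from their count.

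**Figure D1:**
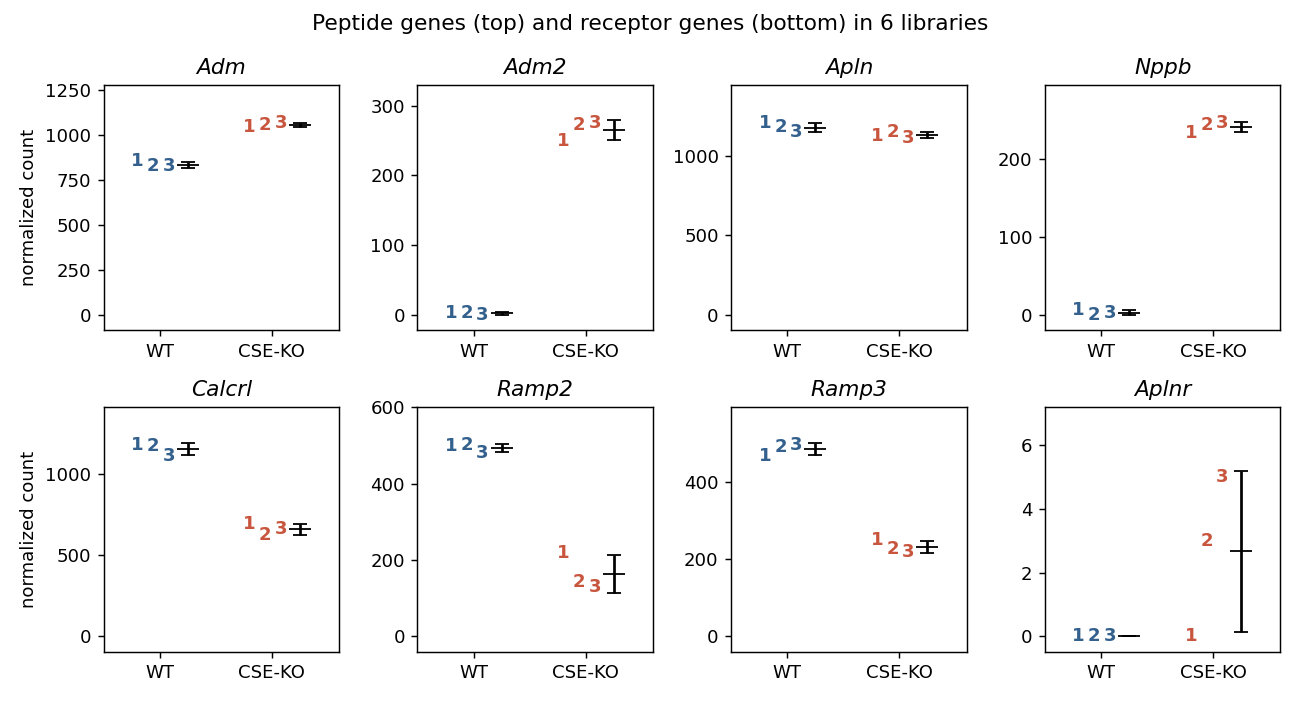
Normalized counts of the 4 peptide genes (top) and 4 receptor genes (bottom). Digits are the replicate numbers of the 3 WT (blue) and 3 CSE-KO (red) libraries, and black marks are group means with SD. Each panel has its own linear axis that includes 0. Adm2 and Nppb lie near 0 in WT and above 200 in CSE-KO, and the groups overlap in Apln and Aplnr.

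Adm2 (ENSMUSG00000054136, chromosome 15, 89322720 to 89324731, plus strand) has 3 exons and 1298 exonic bases. It was at 3, 2 and 0 normalized counts in WT 1 to 3, against 249, 272 and 275 in CSE-KO 1 to 3. The lowest CSE-KO library stood far above the highest WT library, and the 3 CSE-KO libraries lay within 1.10-fold of each other. Read as counts, the group sums of 5 and 796 had a ratio of 159, with an exact 95% interval from 67.9 to 492 that covers counting error only. On the log2(value + 0.5) scale the difference was 7.34 (SE 0.76), and 3 of the 13750 tested genes had a larger one. That log2 value depends on the constant added and was 5.90 with a constant of 3. The few WT counts set its size too: the ratio of group means was 265 without WT 1, 177 without WT 2 and 106 without WT 3.

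Nppb (ENSMUSG00000029019, chromosome 4, 147985788 to 147987205, plus strand), with 781 exonic bases, was at 6, 0 and 2 in WT 1 to 3, against 234, 244 and 246 in CSE-KO 1 to 3. Again no CSE-KO library came near WT, and the CSE-KO libraries lay within 1.05-fold of each other. The sums of 8 and 724 had a ratio of 90.5, with an exact 95% interval from 45.7 to 210 for counting error. The log2 difference was 6.91 (SE 1.01), or 5.57 with a constant of 3. WT 1 held 6 of the 8 WT counts, and the ratio of group means was 241 without WT 1, 60.3 without WT 2 and 80.4 without WT 3. Nppa, the atrial natriuretic peptide gene of the same family, was at 1, 0 and 0 in WT, against 5, 4 and 2 in CSE-KO. Nppc, which encodes C-type natriuretic peptide, was at 0 in all libraries but CSE-KO 3, where it was at 4.

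Since Nppb is a gene of heart muscle cells, markers of those cells were read beside it. Of 9 such markers only the troponin genes Tnnt2 and Tnni3 had a row to analyse, and the other 7 are not analysed here. Their sum lay between 47 and 57 in WT and between 50 and 64 in CSE-KO, where Tnnt2 was higher (49.7 ± 8.39 against 32.3 ± 3.21) and Tnni3 lower (8.67 ± 2.31 against 19.3 ± 2.89). Markers of other cell types moved between the groups as well, where 38.3% of all genes tested rose and 39.0% fell. The summed macrophage markers were at 1020 to 1061 in WT and 1280 to 1440 in CSE-KO, with 7 of 9 tested members rising and Adgre1, Itgam and Marco at 0 in all WT libraries. Like Csf1r and Mpeg1, these reached the minimum of 10 only in CSE-KO, so they could enter the fit only by rising. The member that fell, Cd14 (779 ± 7.51 and 239 ± 67.1), made up most of that sum in WT. Without Cd14 the sum was 232 to 286 in WT and 990 to 1224 in CSE-KO, and Lyz2 (31.0 ± 7.21 and 438 ± 29.0) and Mpeg1 (7.33 ± 1.53 and 229 ± 54.5) were among those that rose. Summed mural and smooth muscle markers went from between 935 and 986 to between 1700 and 1844 (5 of 7 rose, 2 fell), and mesothelial markers from between 191 and 192 to between 628 and 719 (4 of 4 tested rose). The mesothelial markers Msln, Upk3b and Wt1 also reached 10 only in CSE-KO and could enter the fit only by rising. Fibroblast markers summed to between 1168 and 1267 in WT and between 1128 and 1463 in CSE-KO, but Dcn rose (74.7 ± 1.53 and 319 ± 33.6) and Col3a1 fell (156 ± 17.2 and 82.3 ± 21.6), with the other 3 not called. Epithelial markers summed to between 253 and 297 in WT and between 257 and 261 in CSE-KO, with neither of the 2 tested called. Their part in the values of Adm2 and Nppb was not tested.

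Adm (ENSMUSG00000030790, chromosome 7, 110627661 to 110629820, plus strand) was at 853, 825 and 825 in WT 1 to 3, against 1044, 1055 and 1066 in CSE-KO 1 to 3. All CSE-KO libraries were higher than all WT libraries, by a ratio of means of 1.26 (834 ± 16.2 against 1055 ± 11.0, log2 difference 0.34, SE 0.03). This ratio may be understated, because Adm was among the genes with the most counts for their length. Its values were between 0.510 and 0.658 per exonic base over 1619 bases. The highest, in CSE-KO 3, exceeded the highest value of 99.9% of the 18656 genes of at least 300 bases. No such gene exceeded 0.843. Picard is among the tools in the submitters' processing notes. Whether it removed reads that share a start position, after which values level off as they near the number of positions, is not given. A correction for such a loss, chosen after seeing the data, gave Adm a log2 difference of 0.54, a ratio of 1.46.

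**Figure D2:**
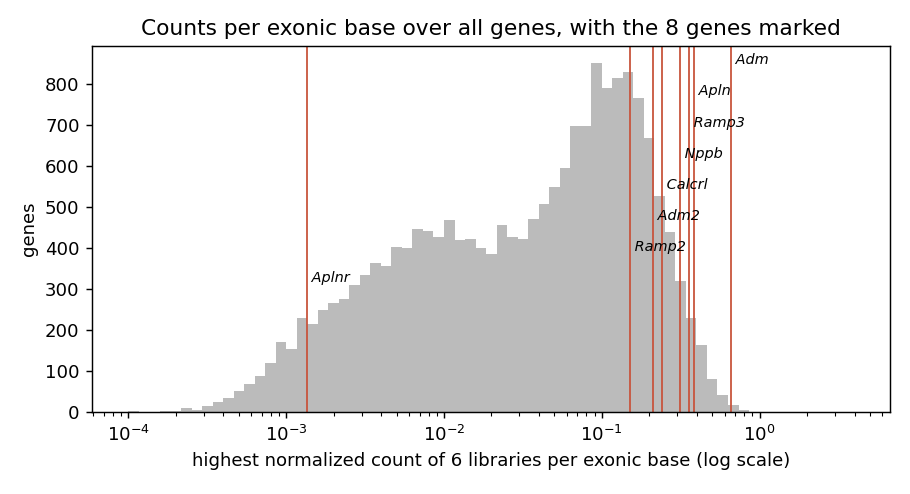
Histogram of all genes by their highest normalized count in 6 libraries per exonic base (log axis). Red lines mark the 8 genes. Adm, at 0.658, lies at the upper end of the distribution, and Aplnr, at 0.00135, at the lower.

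Apln (ENSMUSG00000037010, chromosome X, 48025146 to 48034853, minus strand) was at 1207, 1180 and 1151 in WT 1 to 3, against 1128, 1153 and 1115 in CSE-KO 1 to 3. CSE-KO 2 lay above WT 3, so the groups overlapped. The means were 1179 ± 28.0 and 1132 ± 19.3, a log2 difference of −0.06 (SE 0.03), which was 0.01 with equal totals. The transcript of its receptor was at or near 0. Aplnr (ENSMUSG00000044338, chromosome 2, 85136225 to 85139923, plus strand) had 0 in each WT library, against 0, 3 and 5 in CSE-KO 1 to 3, and no fold is given.

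Calcrl (ENSMUSG00000059588, chromosome 2, 84330626 to 84425411, minus strand), the receptor that adrenomedullin, intermedin and CGRP share, was at 1182, 1173 and 1116 in WT 1 to 3, against 695, 623 and 663 in CSE-KO 1 to 3. The groups lay apart, and the mean in WT was 1.75 times that in CSE-KO (1157 ± 35.8 against 660 ± 36.1, log2 difference −0.81, SE 0.04). In a bulk library, fewer cells that carry a transcript and less of it per cell cannot be told apart. Ramp3 (ENSMUSG00000041046, chromosome 11, 6658521 to 6677475, plus strand) was at 468, 492 and 496 in WT 1 to 3, against 250, 227 and 219 in CSE-KO 1 to 3. Here too no library of either group reached the range of the other, and the ratio of WT to CSE-KO means was 2.09 (485 ± 15.1 against 232 ± 16.1, log2 difference −1.07, SE 0.06). Corrected for shared start positions, the log2 differences were −0.90 for Calcrl and −1.24 for Ramp3.

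Ramp2 (ENSMUSG00000001240, chromosome 11, 101246028 to 101259546, plus strand), the partner that makes CLR the main adrenomedullin receptor of vessels, was at 497, 501 and 480 in WT 1 to 3, against 219, 141 and 128 in CSE-KO 1 to 3. All CSE-KO libraries were below WT, but CSE-KO 1 stood apart from the other two, with a ratio of 1.71 between the highest and the lowest. The mean in WT was 3.03 times that in CSE-KO (493 ± 11.2 against 163 ± 49.2, log2 difference −1.64, SE 0.22). In the annotation Ramp2 shares 1103 of its 3301 exonic bases with Vps25 on the same strand, and reads there may be given to neither gene. Vps25 was at 7, 9 and 9 in WT, against 6, 3 and 3 in CSE-KO. CSE-KO 1 was also the CSE-KO library nearest to the WT mean in 6 of the 7 tested peptide and receptor genes, against 58.0% of all called genes. In Adm, Adm2 and Nppb, which are among the 6, the CSE-KO libraries lay within 1.10-fold of each other.

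General endothelial markers were lower in the same libraries. The summed level of 12 such markers lay between 19741 and 20165 in WT and between 13298 and 14132 in CSE-KO, and 11 of the 12 fell, all but Emcn (1386 ± 26.5 and 1404 ± 8.72). Over all genes tested 39.0% fell and 38.3% rose. Calcrl and Ramp2 are also known from lymphatic endothelium, whose markers were abundant. The sum of the 6 analysed markers lay between 14886 and 15172 in WT and between 5513 and 7510 in CSE-KO, where CSE-KO 1 was the highest, and 5 of the 6 fell and 1 rose. Their part in the lower values of the receptor genes was not tested.

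Levels of different genes were compared per kb of exon. In WT the order of mean levels, in normalized counts per kb, was Adm at 515 ± 9.99, Apln at 375 ± 8.89, Ramp3 at 352 ± 11.0, Calcrl at 237 ± 7.33 and Ramp2 at 149 ± 3.38, with Nppb at 3.41 ± 3.91, Adm2 at 1.28 ± 1.18 and Aplnr at 0. The library ranges of neighbours in this order did not overlap, except those of Nppb, Adm2 and Aplnr. The level of Ramp2 would be 224 over the bases it does not share with Vps25, which leaves its place unchanged. Lengths here count all annotated exons. Ramp2 has 8 annotated transcripts, against 1 to 3 for the other genes, so its place depends on that annotation. In CSE-KO the order of levels was Adm at 652 ± 6.79, Apln at 359 ± 6.13, Nppb at 309 ± 8.23, Adm2 at 204 ± 11.0, Ramp3 at 168 ± 11.7, Calcrl at 135 ± 7.39, Ramp2 at 49.3 ± 14.9 and Aplnr at 0.721 ± 0.680, with no overlap between neighbours. By the annotated lengths, the peptide genes Nppb and Adm2 thus stood below all 3 receptor subunit genes in WT and above them in CSE-KO. Levels may be understated where a gene holds many counts per base. The highest values per exonic base were 0.658 for Adm, 0.383 for Apln, 0.359 for Ramp3 and, in CSE-KO, 0.315 for Nppb.

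**Figure D3:**
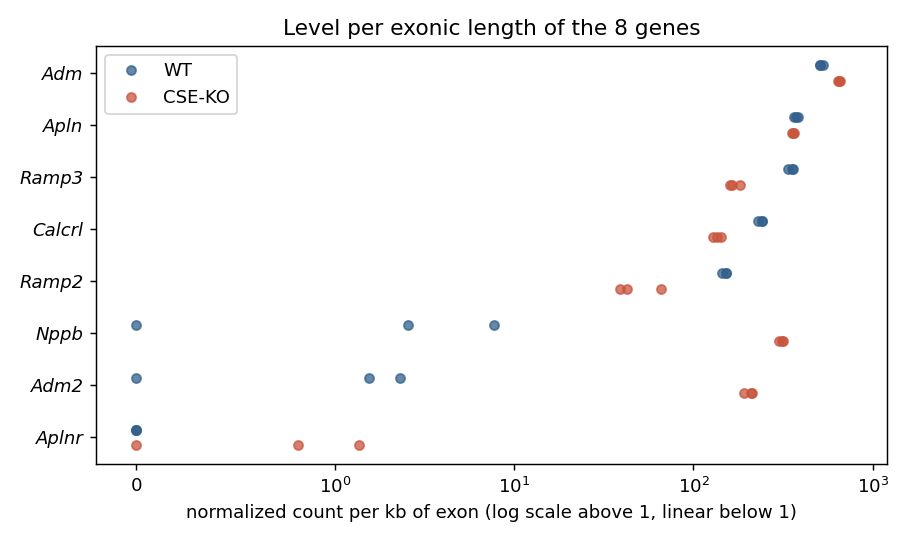
Normalized counts per kb of exon for the 8 genes, 1 point per library (WT blue, CSE-KO red; log axis above 1 and linear below). Nppb and Adm2 lie at 0 to 7.68 in WT and at 192 to 315 in CSE-KO, and Ramp3, Calcrl and Ramp2 lie lower in CSE-KO.

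Genes that act with the peptides and receptors were read from 5 lists by role, with 69 genes, of which 57 had a row to analyse and 46 passed the filter. By limma (adjusted p under 0.05 over all 13750 genes), 12 of the 46 rose and 28 fell, with a median log2 difference of −0.34. Over all genes tested 38.3% rose and 39.0% fell, with a median of 0.00. Against these backgrounds 26.1% of the 46 rose and 60.9% fell. The shares called in either direction, 87.0% and 77.4%, lie close, and no test of the lists as such was made. CSE-KO 1 was the nearest CSE-KO library to WT in 31 of the 40 called genes (77.5%), against 58.0% of all called genes. Without CSE-KO 1, 13 rose and 28 fell.

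All 4 receptors tested outside the 8 genes fell, against 39.0% of all genes tested. Npr1, the receptor of atrial and B-type natriuretic peptide, was at 564, 589 and 523 in WT 1 to 3, against 84, 56 and 47 in CSE-KO 1 to 3. No library overlapped, and the log2 difference of −3.20 (SE 0.22, limma adjusted p = 3.3e-05) was the largest fall in the 5 lists. Ackr3, an atypical receptor that scavenges adrenomedullin and CXCL12, fell from 429 ± 26.9 to 65.0 ± 11.0 (log2 difference −2.72, adjusted p = 1.3e-08). Npr2, the receptor of C-type natriuretic peptide, fell from 850 ± 39.9 to 500.0 ± 19.0 (adjusted p = 3.0e-08). Npr3, which clears natriuretic peptides from outside the cell, fell less, from 1443 ± 44.8 to 1129 ± 69.6 (log2 difference −0.36, adjusted p = 4.5e-05), and did not pass a test against a fold of 1.2 (adjusted p = 0.062, the highest among the alternatives, whose lowest was 7.0e-08). Nppb thus stood at 241 ± 6.43 in the libraries where Npr1 stood at 62.3 ± 19.3, or at 309 and 13.0 per kb of exon.

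Within the adrenomedullin and CGRP list, 4 of 8 genes were tested, 1 rose and 1, Ackr3, fell (38.3% and 39.0% over all genes tested). Crcp, a component of CGRP and adrenomedullin receptor complexes that is also an RNA polymerase III subunit, rose from a mean of 353 to 473 (log2 difference 0.42, SE 0.06, limma adjusted p = 5.7e-05). The CGRP gene Calcb was at 13, 16 and 13 in WT, against 6, 25 and 21 in CSE-KO, and was not called (adjusted p = 0.88). Without CSE-KO 1 it was called upward (adjusted p = 0.030, in a range from 0.030 to 1 over the alternatives), and its log2 difference was −0.29 without CSE-KO 2 and −0.16 without CSE-KO 3. Calca was at 0 in WT, against 2, 2 and 4 in CSE-KO. Calcr, Ramp1 and Iapp are not analysed here.

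Of the apelin list, 6 of 8 genes were tested, 2 rose and 3 fell (38.3% and 39.0% over all genes tested). Among the inhibitory G proteins through which the apelin receptor signals, Gnai1 rose from 32.7 ± 3.21 to 71.3 ± 10.1, Gnai3 from 1125 ± 19.4 to 1278 ± 19.9 and Gnai2 fell from 1584 ± 28.7 to 1190 ± 55.2 (limma adjusted p at most 5.2e-05). Gnai3 did not pass a test against a fold of 1.2 (adjusted p = 1). Beta-arrestin 2, Arrb2, which desensitizes such receptors, fell from 194 ± 10.2 to 130 ± 6.11. Arrb1, named after its values were seen, was at 2657, 2659 and 2717 in WT 1 to 3, against 849, 486 and 436 in CSE-KO 1 to 3 (log2 difference −2.24, adjusted p = 0.0019). Its call was lost with WT 1 to 3 counted as 1 sample (adjusted p = 0.051, in a range from 6.4e-15 to 0.19). Apela, a further apelin receptor ligand, is not analysed here.

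Downstream of the receptors the genes moved in both directions. All 7 tested genes of the natriuretic peptide list were called, 3 upward and 4 downward, where 77.4% of all genes tested were called. Pde3b, a phosphodiesterase that cyclic GMP inhibits, fell from 879 ± 26.9 to 419 ± 43.2 (limma adjusted p = 1.0e-06). The 3 that were called upward, named after their values were seen, were Pde5a, a cyclic GMP phosphodiesterase (5.00 ± 1.73 and 13.7 ± 2.52, adjusted p = 0.0038), and the cyclic GMP-dependent kinase genes Prkg2 (45.3 ± 5.13 and 87.0 ± 10.5, adjusted p = 9.3e-05) and Prkg1. Pde5a reached the minimum of 10 only in CSE-KO, so it could enter the fit only by rising. The groups overlapped in Prkg1 (110, 94 and 127 in WT, against 142, 125 and 130 in CSE-KO, adjusted p = 0.049). Its call was lost in 10 of 19 alternatives, among them those without WT 1, without WT 2 or without any of the CSE-KO libraries (adjusted p from 0.013 to 0.73 over the alternatives). In the cyclic AMP arm, which the adrenomedullin receptors feed, 6 of 20 tested genes rose and 12 fell, with a median log2 difference of −0.24. The shares over all genes tested were 38.3% and 39.0%. The adenylyl cyclase genes Adcy6 and Adcy9 fell from 1170.0 ± 56.7 to 700.0 ± 27.5 and from 166 ± 8.19 to 65.3 ± 6.11, and the cyclic AMP phosphodiesterase Pde4b fell from 1599 ± 24.7 to 1095 ± 34.6 (adjusted p at most 3.1e-07). Prkar1b, a regulatory subunit of protein kinase A, was at 16, 8 and 8 in WT 1 to 3, against 144, 168 and 192 in CSE-KO 1 to 3 (log2 difference 3.98, SE 0.26, adjusted p = 2.8e-07), the largest rise in the 5 lists. Of its WT libraries only WT 1 reached 10, so it passed the filter through CSE-KO.

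Of the genes for making and breaking down peptides, 9 of 15 were tested, none rose and 8 fell, with a median log2 difference of −0.66. Over all genes tested 38.3% rose and 39.0% fell, with a median of 0.00. Pam, which amidates adrenomedullin and intermedin at the C terminus as their activity requires, fell from 1660.0 ± 19.9 to 1055 ± 51.4. The proprotein convertase Furin, which cuts peptide precursors, fell from 1551 ± 20.3 to 1051 ± 66.6, the carboxypeptidase gene Cpd from 2398 ± 16.5 to 1455 ± 65.0 and Ide, an insulin- and natriuretic peptide-degrading enzyme, from 1144 ± 45.5 to 857 ± 25.1 (limma adjusted p at most 8.8e-07). Pcsk6, named after its values were seen, fell from 1921 ± 30.9 to 502 ± 167 (adjusted p = 0.0018). It lost its call with both WT 1 to 3 and CSE-KO 2 and 3 counted as 1 sample each (adjusted p = 0.19, with a lowest of 5.0e-15 among the alternatives). Corin and Mme are not analysed here.

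**Figure D4:**
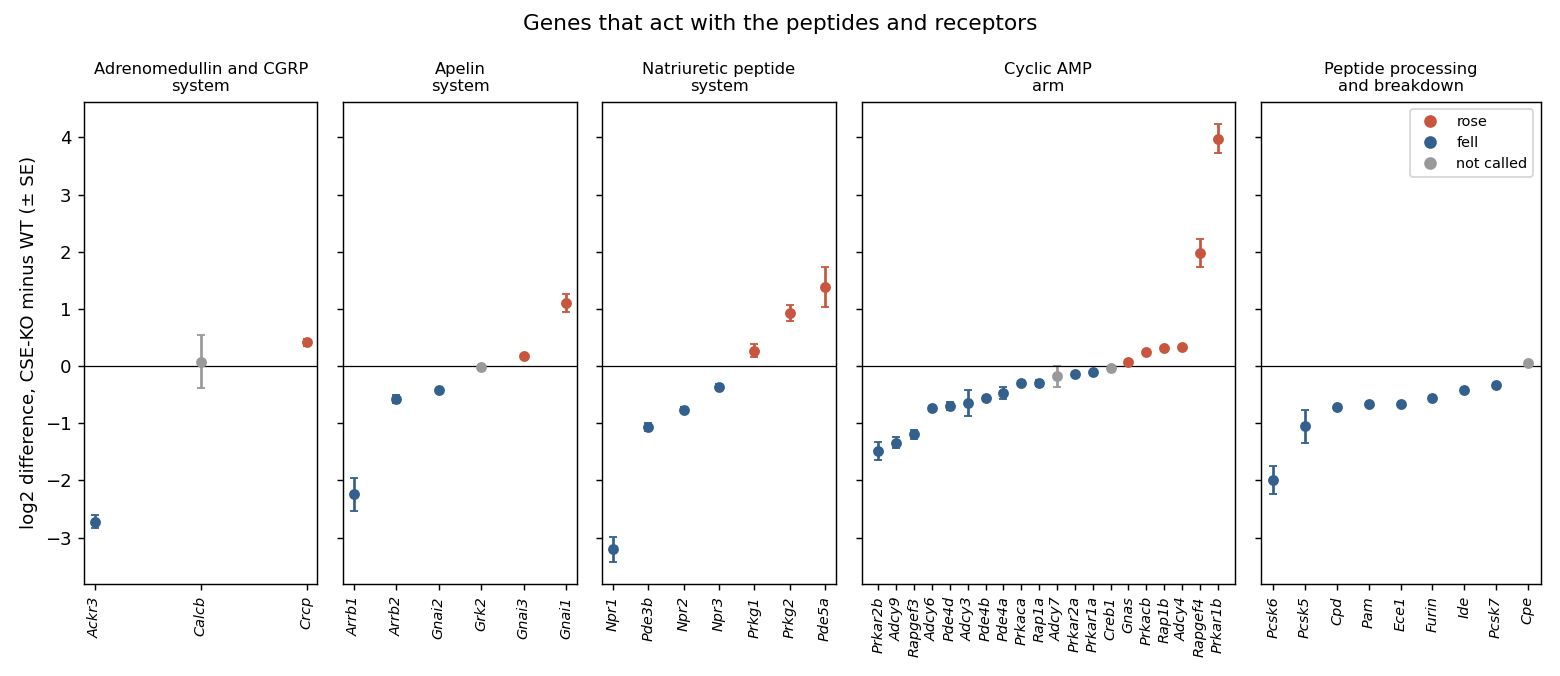
Log2 difference of CSE-KO minus WT with its SE for 45 of the 46 tested genes of the 5 lists, from limma on log2(value + 0.5). Red points rose, blue points fell and grey points were not called at an adjusted p of 0.05. Npr1 (−3.20) and Ackr3 (−2.72) lie lowest and Prkar1b (3.98) highest.

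The genes with the most similar pattern were taken as the 2 with the smallest distance to each gene, over 6 libraries, among 11347 others, after each profile was centred on its own mean. For Adm2 they were the cationic amino acid carrier gene Slc7a3 (distance 1.59 on the log2 scale) and the chemokine gene Ccl6 (1.66), and for Nppb the lectin receptor gene Clec4n (1.03) and the chemokine gene Cxcl5 (1.10). These distances are large because values near 0 in WT scatter. For Adm they were Kif5b and Dcun1d5 (0.0179 and 0.0187), for Apln Ostm1 and Angptl4 (0.0151 and 0.0269), for Calcrl Kmt2e and Wdr13 (0.0465 and 0.0573), for Ramp3 Map3k4 and Slc39a14 (0.0358 and 0.0607) and for Ramp2 Sh3glb2 and Plxnd1 (0.0980 and 0.0982). Plxnd1, an endothelial semaphorin receptor gene, was at 3780, 3706 and 3761 in WT, against 1584, 1027 and 967 in CSE-KO, with CSE-KO 1 highest as in Ramp2.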

How the data were processed

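Gene expression was read from a deposited table with 1 column per library. No header or label states its unit. The authors' values are whole numbers and were read as normalized counts (in the table of units a score), that is read counts divided by a size factor per library and rounded, since median-ratio factors of the 6 columns were all between 1.003 and 1.008. The submitters' processing notes name build mm10 and, with no role or order, DESeq2, featureCounts 1.6.5, Picard 2.21.7, STAR 2.7.3a and Trimmomatic 0.39. The smallest row maximum was 3.

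After log2(value + 0.5), genes that reached 10 in 3 or more libraries were fitted with limma 3.58.1 in R 4.3.3 (linear model of group, mean trend, robust variances, two-sided, Benjamini-Hochberg over all genes), after the script was tested on simulated data. Fold changes on this scale are understated for low values. Group means under 3 get no fold other than a ratio of group sums, or of group means with a WT library left out. Exonic lengths came from GENCODE mouse release 21, where 18783 of 18956 IDs had the same coordinates. The members and lists were chosen with earlier results of these data known. Up to 4 genes per list, those with the smallest adjusted p, are named, with the receptors and ligands. A listed gene is counted but not reported here. Alternatives covered scaling, filters, the constant added, left-out libraries, the replicate block, the variance model, libraries counted as 1 sample and, added after the data were seen, a correction for shared start positions and a test against a fold of 1.2.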

Additional observations from a re-analysis of the deposited data

How the results depend on the processing

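The count of genes called stayed within 1.5 times of 10639 in all alternatives but a test against a fold of 1.2, which called 6711, of which 3182 rose and 3529 fell. In that test 7 of the 46 genes of the 5 lists rose, against 12, and 20 fell, against 28. With a replicate block 10440 genes were called, and 41 of the 46 against 40. Libraries with the same number did not deviate together (correlations of −0.001, 0.020 and 0.011). Because the WT libraries scatter no more than counting noise gives, this cannot show whether the number pairs libraries. Leaving out a library gave between 10137 and 10636 calls, with between 38 and 41 of the 46. With WT 1 to 3 counted as 1 sample 8845 genes and 35 of the 46 were called, and with CSE-KO 2 and 3 counted as 1 sample too, 8225 and 33. The log2 difference of no called member changed sign. Of 35 named genes outside the members, 27 had the same call in every alternative run for them, which was 19 for 33 genes and 18 for Calcb and Pde5a, whose means are under 50. Aplnr, Nppa, Nppc and Calca did not pass the filter on low values, and no test of them is given.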

Other observations

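Adm, Apln and Vegfa are known to respond to hypoxia, and a list of hypoxia-inducible factors and their targets moved in both directions. Of 27 tested genes 11 rose and 11 fell (limma, adjusted p under 0.05), with a median log2 difference of 0.00, as over all genes. Over all genes tested 38.3% rose and 39.0% fell. Vegfa, the main growth factor of vessels, was at 241, 265 and 272 in WT 1 to 3, against 963, 1038 and 1079 in CSE-KO 1 to 3 (log2 difference 1.98, adjusted p = 5.0e-10), and the hexokinase gene Hk2 rose from 603 ± 8.33 to 1048 ± 48.8. The oxygen-sensing hydroxylase Egln1 fell from 852 ± 27.0 to 598 ± 17.6 and the pyruvate dehydrogenase kinase Pdk1 from 969 ± 50.4 to 443 ± 33.0 (adjusted p at most 1.7e-07).

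Genes of sprouting tip cells, among which Apln is usually counted, also moved both ways, with 4 of 12 rising and 7 falling and a median log2 difference of −0.33. The shares over all genes tested were 38.3% and 39.0%, with a median of 0.00. Pgf, placental growth factor, rose from 242 ± 6.08 to 1042 ± 20.8, Esm1, an endothelial proteoglycan, from 667 ± 12.5 to 1156 ± 22.5 and Igfbp3 from 376 ± 17.2 to 1130.0 ± 50.7. The platelet-derived growth factor gene Pdgfb fell from 651 ± 12.2 to 371 ± 9.07 (limma adjusted p at most 8.5e-09 for these 4 genes). Larger falls, named after their values were seen, were those of the Notch ligand gene Dll4 (871, 869 and 827 in WT, against 118, 44 and 30 in CSE-KO, adjusted p = 0.0028), the basement membrane gene Nid2 (1677 ± 25.0 to 271 ± 134, adjusted p = 0.0023) and the VEGF receptor gene Kdr (2143 ± 26.2 to 980 ± 76.6, adjusted p = 2.8e-07). With WT 1 to 3 counted as 1 sample the calls of Dll4 and Nid2 were lost (adjusted p of 0.059, in a range from 4.3e-09 to 0.21, and of 0.056, in a range from 4.7e-15 to 0.20). No test of either list as a whole was made.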
